A study of Mus musculus with 28 samples.

Results

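Cytochrome P450 enzymes are haem proteins that oxidise drugs, fatty acids, sterols and vitamins, and the mouse genome carries many of them in tandem families. The 46 P450 genes described here were selected from a table of 49492 gene symbols by their names and by their abundance: the symbol had to be Cyp followed by a family number, a subfamily letter and a gene number, and the counts had to sum to at least 50 over 28 libraries. Of 94 symbols of that form, 46 met the minimum. The summed counts are thus what chose the members, and they are not used as a result. Just inside the minimum lay Cyp17a1 and Cyp2j8 with 56 counts each and Cyp2f2 with 78, and just outside lay Cyp2c29 and Cyp2c67 with 30 each and Cyp3a57 with 28.

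Most P450 enzymes sit in the membrane of the endoplasmic reticulum and take electrons from the reductase POR, while a few of the sterol and vitamin D enzymes sit in mitochondria and use ferredoxin. Families CYP1 to CYP3 are known mainly for foreign compounds, the CYP2C and CYP2J enzymes also for epoxidation of arachidonic acid, and CYP4 for hydroxylation of fatty acids and eicosanoids, with several CYP4A genes being classic targets of the nuclear receptor PPAR alpha. The gut epithelium expresses a set of P450 genes of its own, which differs from that of the liver.

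RNA came from hand-scraped epithelium of the corpus, the acid-secreting region of the stomach. The mice carried a villin-PPARD transgene or were wild-type (WT) littermates, and were 10, 25 or 55 weeks old. PPARD is the lipid-activated nuclear receptor PPAR delta, and the villin promoter is one used chiefly to express genes in intestinal epithelium. Each genotype is represented by 5 libraries of 10 weeks, 4 of 25 weeks and 5 of 55 weeks. The labels do not say that each library is a separate mouse, so p-values measure the spread between these libraries, which may be technical in part. WT libraries 2 and 3 of 10 weeks were much more alike than any other pair of a group (chi-square per degree of freedom of 3.95, against 13.8 or more), and whether they came from 1 mouse is not known. No other allele or treatment is named in the labels, nor is the transgene's line.

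The sequences just upstream of a RefSeq start site are shown for 5 members on which the results turn, so that the regions can be compared by eye. These are Cyp2s1, the most abundant; Cyp3a13, higher at every age; Cyp2b10, lower at every age; and Cyp4f40 and Cyp2d26, higher at 55 weeks. Each is the 250 bases before the start in RefSeq's GRCm38 annotation, 5′ to 3′ on the gene's strand: chr7:25816526-25816775 (minus strand), chr5:137921620-137921869 (minus), chr7:25897408-25897657 (plus), chr17:32658777-32659026 (plus) and chr15:82794246-82794495 (minus). RefSeq and GENCODE starts differ for some of these genes. The Cyp2s1 stretch lies wholly inside the GENCODE gene (25802475 to 25816913), so it may be transcribed. The stretches of Cyp2b10, Cyp4f40 and Cyp2d26 lie inside their GENCODE genes in part. RefSeq also has a Cyp4f40 promoter at 32658636 to 32658935, which is not shown. Capitals mark matches to the motifs named after them.
Cyp2s1: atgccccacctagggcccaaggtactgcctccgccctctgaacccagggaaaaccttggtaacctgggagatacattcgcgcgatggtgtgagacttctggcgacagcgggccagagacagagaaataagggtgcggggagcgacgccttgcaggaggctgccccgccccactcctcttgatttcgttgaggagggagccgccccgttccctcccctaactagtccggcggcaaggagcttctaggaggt
Cyp3a13: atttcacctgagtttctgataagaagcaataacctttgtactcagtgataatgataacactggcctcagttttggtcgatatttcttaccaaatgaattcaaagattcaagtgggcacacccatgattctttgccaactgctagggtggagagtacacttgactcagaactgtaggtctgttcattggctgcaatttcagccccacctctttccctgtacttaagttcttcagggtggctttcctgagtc
Cyp2b10: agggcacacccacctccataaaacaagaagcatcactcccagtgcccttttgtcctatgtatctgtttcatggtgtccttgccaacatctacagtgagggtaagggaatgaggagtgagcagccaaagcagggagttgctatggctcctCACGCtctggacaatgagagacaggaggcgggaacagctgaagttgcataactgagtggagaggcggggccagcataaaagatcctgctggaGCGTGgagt
Cyp4f40: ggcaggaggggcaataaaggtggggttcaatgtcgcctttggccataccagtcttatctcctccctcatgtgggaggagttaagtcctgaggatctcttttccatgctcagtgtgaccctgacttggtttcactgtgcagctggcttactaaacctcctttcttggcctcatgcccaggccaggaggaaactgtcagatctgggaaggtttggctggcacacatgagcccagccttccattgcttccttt
Cyp2d26: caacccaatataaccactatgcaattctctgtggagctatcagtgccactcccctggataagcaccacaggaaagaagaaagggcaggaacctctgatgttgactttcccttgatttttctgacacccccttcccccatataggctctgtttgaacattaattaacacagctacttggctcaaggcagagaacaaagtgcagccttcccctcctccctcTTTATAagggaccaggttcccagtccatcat

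Promoters of 300 bases (250 before and 50 after the start) were found for 34 of the 46 genes and were searched on both strands for 5 motifs. The nuclear receptor motif AGGTCA was present in 4 of the 34 genes (Cyp11a1, Cyp2a5, Cyp2c70 and Cyp2f2), against 16.3% of 32851 RefSeq promoters. A pair of AGGTCA with 1 base between, the arrangement bound by PPAR with RXR, was in 0 of the 34 and in 0.0396% of all promoters, and any such pair also counts as a single copy. GCGTG, the core bound by the aryl hydrocarbon receptor, was in 10 genes, Cyp1b1 and Cyp2b10 among them, against 32.4%, and GAAA followed by 2 bases and GAAA was in 3 against 3.44%. TATAAA was in 11 genes, Cyp2c65, Cyp2c66, Cyp2d9, Cyp2d10 and Cyp2d26 among them, against 13.6%. A match describes letters in this window only, and the capitals above are both orientations of GCGTG in Cyp2b10 and TATAAA on the opposite strand in Cyp2d26.

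Total counts ran from 10982888 to 30891108 per library. Levels are given as CPM, a gene's counts divided by its library's total, scaled with trimmed-mean factors and multiplied by 1000000. Markers of the corpus cell types were present, and their levels differed with genotype. At 55 weeks the summed level of 8 measured chief cell markers was 25895 to 98976 CPM in WT and 313 to 1351 CPM in villin-PPARD libraries, with 0 of 7 tested markers higher and 7 lower. For 13 parietal cell markers the ranges were 8806 to 12638 and 1829 to 3128 CPM (1 of 12 higher, 10 lower), for 8 pit cell markers 160869 to 213679 and 37746 to 77240.5 CPM (1 of 8 higher, 6 lower), and for 8 endocrine markers 678 to 1332 and 41.5 to 138 CPM (0 higher, 6 lower). Markers of mucous neck cells and metaplasia went the other way, with 9 genes at 5111 to 7116 and 18427 to 26954 CPM (6 higher, 2 lower), as did 11 leukocyte markers at 65.3 to 79.99 and 163 to 409 CPM (7 of 8 higher) and 12 forestomach squamous markers at 9.1 to 20.9 and 52 to 91 CPM (4 of 9 higher, 2 lower). Lipf of the chief cell list was at 0 in all WT libraries of 55 weeks, Ckm of the parietal list and Krtdap of the squamous list in all villin-PPARD ones. Of all genes tested, 31.7% were higher and 27.6% lower at 55 weeks. The lists also differed at the earlier ages, when 17.9% and 21% of all genes were higher and 16.2% and 18.6% lower. Parietal markers were 8 of 12 lower and 1 higher at 10 and at 25 weeks, chief cell markers 4 and 5 of 7 lower, endocrine markers 3 and 5 of 8 lower, and neck and metaplasia markers 3 and 5 of 9 higher. Leukocyte markers were 2 of 8 higher at both ages. Other lists did not keep their 55-week direction. Pit cell markers were 2 of 8 higher and 0 lower at 10 weeks, and 1 and 1 at 25 weeks. Squamous markers were 0 of 9 higher and 2 lower at 10 weeks, and 1 and 0 at 25 weeks. In such bulk samples, fewer cells of a type and less RNA per cell cannot be told apart, and the part of these cell types in the P450 results was not tested.

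Markers of neighbouring tissues and other cells were low or mixed. Liver markers, 13 genes, summed to 42.3 to 91.6 CPM in WT and 9.16 to 22.4 CPM in villin-PPARD libraries at 55 weeks, and 10 pancreas markers to 42.8 to 72.8 and 30.3 to 49.3 CPM, with Ins2 at 0 in both groups. For 18 intestinal epithelium markers the ranges were 868 to 1374 and 889.7 to 1139.5 CPM (4 of 13 higher, 7 lower, median log2 difference -1.50), with Cdx1 and Sis at 0 in both groups and Cdh17 at 0 in WT. Mast cell markers, 8 genes, summed to 64.5 to 98.4 and 92.8 to 214 CPM (2 of 7 higher, 4 lower, median log2 difference -1.08), 10 fibroblast and endothelium markers to 438 to 529 and 399 to 661 CPM, and 8 smooth muscle and fat markers to 78.5 to 129 and 47.5 to 83.6 CPM. Cfd was at 0 in both groups, Adipoq in WT and Plin1 in villin-PPARD. Mitochondrially encoded genes took 4.81% to 20.4% of counts in WT and 1.57% to 6.27% in villin-PPARD libraries.

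Levels could be ordered across the 46 genes after division by exon length. Over the 14 WT libraries, Cyp2s1, an extrahepatic epithelial P450, stood first at 230.0 CPM per kb and took 61.6% of all P450 CPM. Cyp2c65, a CYP2C enzyme of the gut, followed at 157 CPM per kb (16.4%), and Cyp2j6, of the arachidonic acid-epoxidising CYP2J family, at 46.3 CPM per kb (9.05%). Next came Cyp2d10, Cyp4f16 and Cyp20a1, at 13.2, 11.9 and 9.31 CPM per kb. The order of Cyp2d10 among these 3 is not firm, since its SD over the WT libraries was 7.88 CPM around a mean of 21.8 CPM. The liver enzyme Cyp2e1 was close to the bottom at 0.114 CPM per kb, and the aryl hydrocarbon receptor target Cyp1b1 stood at 0.502 CPM per kb.

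In villin-PPARD mice of 55 weeks the order changed at the top. Cyp2c65 was first at 143 CPM per kb, then Cyp2s1 at 65.4 and Cyp2j6 at 39.3, and the share of Cyp2s1 was 31.7%. Cyp2d34 and Cyp2d26, ranked 15 and 14 in WT, stood at 9.84 and 9.14 CPM per kb and were among the 10 most abundant.

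**Figure D1:**
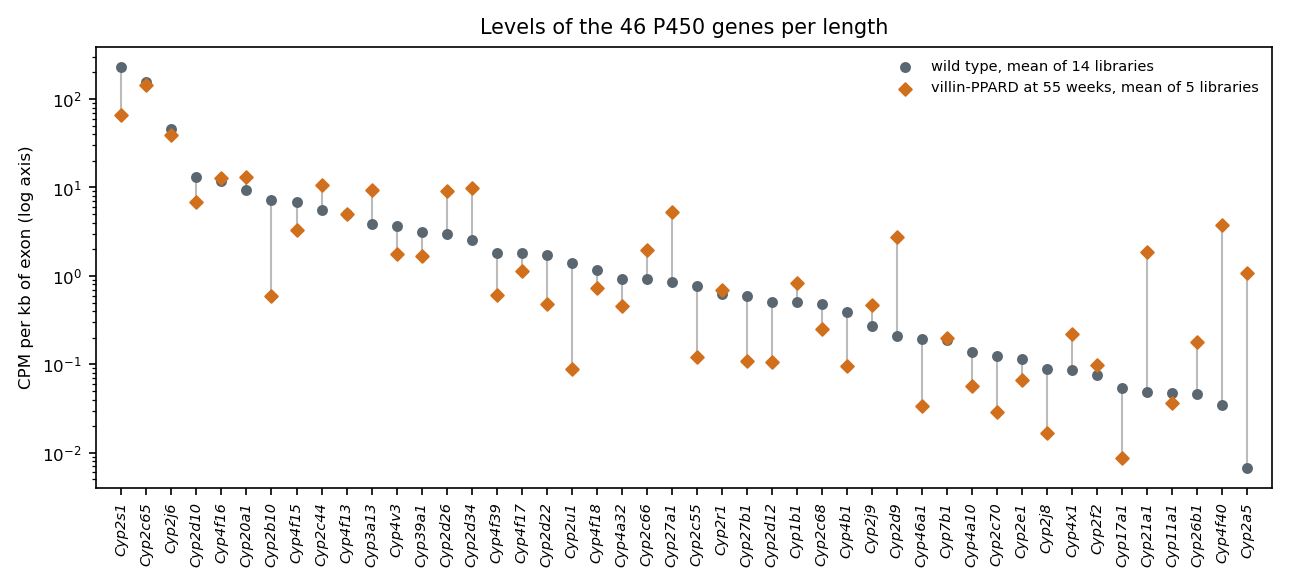
Mean level of each of the 46 P450 genes in CPM per kb of exon (log axis), ordered by the level in wild type (grey circles, mean of 14 libraries), with 55-week villin-PPARD mice as orange diamonds (mean of 5 libraries). Cyp2s1 is at 230.0 CPM per kb in wild type and 65.4 in the transgenic mice, while Cyp4f40, Cyp2a5 and Cyp21a1 at the right end are higher in the transgenic mice.

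Genotypes were compared at each age with edgeR's quasi-likelihood test over all 15812 genes that passed a count filter, 39 of the 46 members among them. A gene is called higher or lower when its Benjamini-Hochberg adjusted p is under 0.05. At 10 weeks 5 members were higher in villin-PPARD mice (12.8% of 39, against 17.9% of all genes tested) and 11 lower (28.2%, against 16.2%). At 25 weeks 6 were higher (15.4%, against 21%) and 12 lower (30.8%, against 18.6%). At 55 weeks 13 were higher (33.3%, against 31.7%) and 17 lower (43.6%, against 27.6%). Of the 39, 5 passed the filter only through the 55-week villin-PPARD libraries, and the 55-week counts without them are given below.

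The median log2 difference over the members was -0.16, -0.33 and -0.05 at the 3 ages, against -0.03, -0.01 and 0.03 over all genes. The libraries of the genotypes did not overlap for 13 members at 10 weeks: 4 were higher in villin-PPARD (10.3%, against 14.5% of all genes) and 9 lower (23.1%, against 11.1%). At 25 weeks the counts were 4 (10.3%, against 14.9%) and 9 (23.1%, against 12.4%), and at 55 weeks 11 (28.2%, against 23.9%) and 12 (30.8%, against 19.4%). The 11 include Cyp21a1, Cyp26b1, Cyp2a5 and Cyp4f40, which passed the count filter only through the 55-week villin-PPARD libraries. The 28.2% is thus in part set by the filter, and no excess over 23.9% is read from it. The split depended on scaling. With library size alone in place of trimmed-mean factors, the median of all genes moved from -0.01 to 0.15 at 25 weeks and from 0.03 to 0.43 at 55 weeks, and the calls of members and of all genes shifted with it. Members were then 8 higher (20.5%, against 30.8% of all genes) and 10 lower (25.6%, against 10.5%) at 25 weeks, and 17 higher (43.6%, against 54.7%) and 11 lower (28.2%, against 14.6%) at 55 weeks. The members admitted by the 55-week villin-PPARD libraries are among those tested here too. Among the members described here, that scaling ended the calls of Cyp2c66 and Cyp4v3 at 25 weeks (adjusted p = 0.118 and 0.0683), of Cyp4f17 at 10 weeks (0.108), and of Cyp2c68 and Cyp2d10 at 55 weeks (0.122 and 0.426), besides those of 55 weeks given with Cyp39a1 and the CYP4 genes. It also ended the changes between 10 and 55 weeks for Cyp2b10, Cyp2d10 and Cyp4f16 (0.127, 0.0722 and 0.546).

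Calls differed in their pattern over age. Cyp2c44, Cyp2d9 and Cyp3a13 were higher at all 3 ages, and Cyp2b10, Cyp2d22, Cyp2u1, Cyp46a1, Cyp4f17, Cyp4f18 and Cyp4v3 lower at all 3. Cyp2d34 was lower at 10 and 25 weeks and higher at 55 weeks, and Cyp27a1 and Cyp2c66 were lower at 25 and higher at 55 weeks. Another 5 members were called higher at 55 weeks alone (Cyp26b1, Cyp2a5, Cyp2d26, Cyp2j9 and Cyp4f40) and 7 lower at 55 weeks alone (Cyp27b1, Cyp2c55, Cyp2c68, Cyp2d10, Cyp2s1, Cyp4f15 and Cyp4f39). For 6 members no age gave a call: Cyp1b1, Cyp2j6, Cyp2r1, Cyp4f13, Cyp4x1 and Cyp7b1. Without the 55-week villin-PPARD libraries, Cyp21a1, Cyp26b1, Cyp2a5, Cyp4f40 and Cyp4x1 would not have passed the count filter, and Cyp2a5, Cyp4f40 and the untested Cyp2f2 would have had too few counts to be members. A high level in that group is what let these 5 in, so their 55-week values are a description with no test. Of the other 34 tested members, 9 were higher and 17 lower at 55 weeks, when 31.7% of all genes were higher and 27.6% lower. The same holds for Cyp7b1, which passed the filter through WT mice of 10 weeks.

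**Figure D2:**
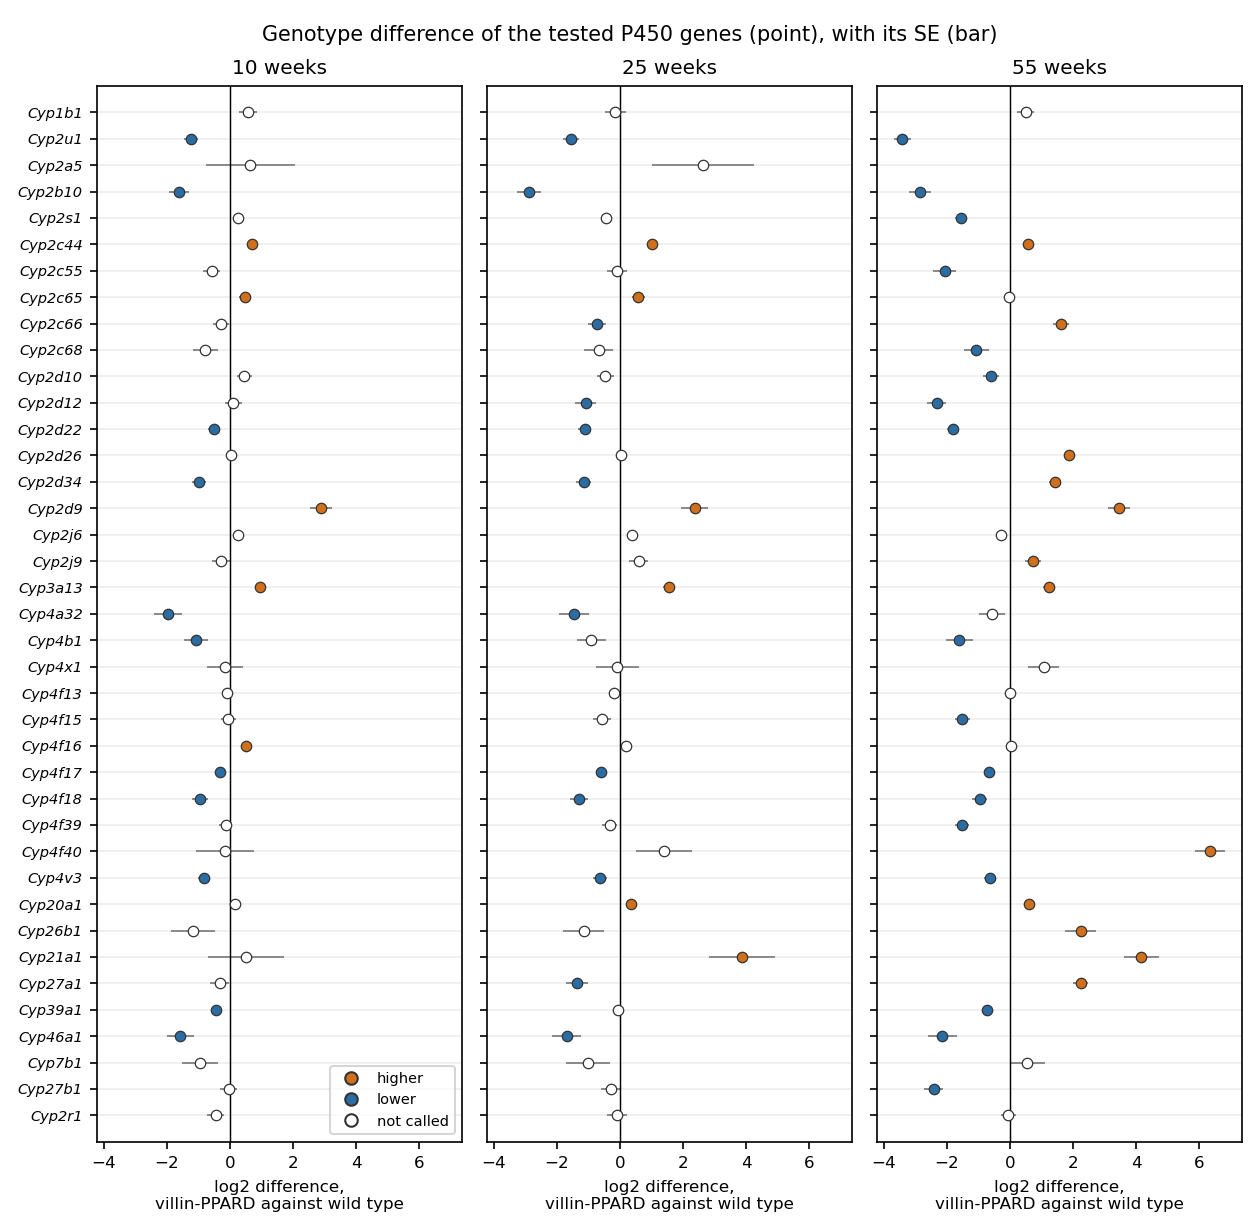
Log2 difference of villin-PPARD against wild type for the 39 tested P450 genes at 10, 25 and 55 weeks (points, with SE as bars), ordered by family and role; orange is called higher, blue lower and white not called. Differences are widest at 55 weeks; Cyp2a5 is not drawn there because its wild-type libraries held no count.

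The 3 most abundant genes moved unlike each other. Cyp2s1 (ENSMUSG00000040703, chromosome 7, 25802475 to 25816913, GRCm38) had 1465, 1016, 986, 1241 and 1347 CPM in the WT libraries of 10 weeks and 1668, 1399, 1343, 1329.7 and 1459.7 CPM in villin-PPARD. At 25 weeks the values were 1498, 1221, 1394 and 961 against 1130.3, 1010.4, 742 and 879 CPM, and at 55 weeks 1039, 892, 1098, 1023 and 719 against 258, 469, 353, 227 and 308 CPM. The groups overlapped at 10 and 25 weeks, and at 55 weeks every transgenic library lay below every WT library. The mean fell from 954 ± 151 to 323 ± 94.6 CPM (SD, n = 5) at 55 weeks, a log2 difference of -1.56 ± 0.17 (SE; adjusted p = 3.31e-09). At 10 and 25 weeks the log2 differences were 0.25 ± 0.16 and -0.43 ± 0.18 (adjusted p = 0.248 and 0.0613).

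Cyp2c65 was called higher at 10 and 25 weeks and not at 55 weeks. Its WT libraries of 10 weeks had 412, 246, 247, 389 and 302 CPM and its villin-PPARD libraries 420.3, 370.1, 446, 480.1 and 508 CPM. At 25 weeks they had 233, 372, 367 and 264 against 590.1, 496, 346 and 423 CPM, and at 55 weeks 413, 239, 246, 273 and 221 against 198, 298, 291, 235 and 353 CPM. The groups overlapped at every age. Log2 differences were 0.48 ± 0.19, 0.59 ± 0.21 and -0.02 ± 0.19 (adjusted p = 0.0482, 0.0274 and 0.943), and the early calls were fragile. The 10-week call was lost without WT library 2, 3 or 5 or villin-PPARD library 1, 3, 4 or 5 (adjusted p of 0.0649 to 0.133), with a replicate block (0.0836) and with WT libraries 2 and 3 summed (0.130). The 25-week call was lost without WT library 1 or 4 or villin-PPARD library 1 or 2 (0.0616 to 0.123) and with a replicate block (0.0673).

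Cyp2j6 gave no call at any age. Its level was 183, 137, 133, 188 and 175 CPM in WT and 197, 168, 187, 216 and 212 CPM in villin-PPARD libraries of 10 weeks, 161, 188, 169 and 148 against 272, 250.5, 137 and 209 CPM at 25 weeks, and 227, 154, 166, 173 and 135 against 102, 161, 168, 119 and 159 CPM at 55 weeks. For Cyp2j6 the groups overlapped at 10, 25 and 55 weeks. It averaged 163 ± 26.3 CPM in WT and 196 ± 19.4 CPM in villin-PPARD at 10 weeks (SD, n = 5), 166 ± 16.8 and 217 ± 59.5 CPM at 25 weeks (SD, n = 4), and 171 ± 34.3 and 142 ± 29.4 CPM at 55 weeks (SD, n = 5). Its neighbour Cyp2j9 was called at 55 weeks, from 0.966 ± 0.208 to 1.58 ± 0.483 CPM (log2 difference 0.71 ± 0.25, adjusted p = 0.0171). Its libraries overlapped, and the call was lost without WT library 4 or villin-PPARD library 4 or 5 (adjusted p of 0.0563 to 0.0648).

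Cyp3a13, the CYP3A member of the set and an enzyme of intestine and liver that oxidises drugs and steroids, rose at all 3 ages. WT libraries had 12.7, 11.5, 11.8, 11.8 and 11.4 CPM at 10 weeks, and villin-PPARD libraries 22.9, 17.9, 21.6, 25.7 and 25.9 CPM. The values were 10.5, 12.1, 11.1 and 9.65 against 41.4, 35.9, 15.3 and 33.5 CPM at 25 weeks and 12.9, 10.1, 11.7, 12.3 and 11.4 against 22, 27.2, 31.7, 24.1 and 31.8 CPM at 55 weeks. No transgenic library overlapped with WT; library 3 of 25 weeks, at 15.3 CPM, lay nearest to it. Log2 differences were 0.94 ± 0.17, 1.54 ± 0.19 and 1.23 ± 0.17 (adjusted p = 6.74e-05, 3.04e-07 and 2.49e-07).

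Cyp2c44, an arachidonic acid epoxygenase, also rose at each age, by log2 differences of 0.69 ± 0.12, 1.01 ± 0.13 and 0.58 ± 0.12 (adjusted p = 6.11e-05, 1.28e-06 and 8.49e-05). Its means went from 10.3 ± 1.28 to 16.5 ± 1.49 CPM at 10 weeks, from 10.4 ± 1.13 to 20.9 ± 1.76 CPM at 25 weeks and from 15.4 ± 2.63 to 23.1 ± 3.82 CPM at 55 weeks. Cyp2c44 had 9.74, 8.7, 9.8, 11.3 and 11.8 CPM in WT and 17.1, 14.7, 16.4, 18.6 and 15.6 CPM in villin-PPARD libraries of 10 weeks, 10.9, 11, 10.9 and 8.68 against 20.6, 20.2, 19.3 and 23.4 CPM at 25 weeks, and 19.3, 16.6, 12.7, 13.6 and 14.9 against 21.6, 25.6, 28.4, 18.8 and 21.3 CPM at 55 weeks. For Cyp2c44 all transgenic libraries were above WT at 10 and 25 weeks and the groups overlapped at 55 weeks. Among the other CYP2C genes, Cyp2c66 fell at 25 weeks from 2.45 ± 0.394 to 1.48 ± 0.196 CPM (log2 difference -0.73 ± 0.28, adjusted p = 0.0382) and rose at 55 weeks from 1.24 ± 0.371 to 3.86 ± 0.624 CPM (1.62 ± 0.25, adjusted p = 1.56e-06). The 25-week call was lost without WT library 1, 2 or 3 or villin-PPARD library 1 or 2 (adjusted p of 0.0629 to 0.108) and with a library group term, which sets WT library 3 apart (0.0990). Cyp2c55 and Cyp2c68 had log2 differences of -2.07 ± 0.36 and -1.07 ± 0.40 at 55 weeks (adjusted p = 1.31e-05 and 0.0213), the second call being lost without WT library 1 (adjusted p = 0.25) or villin-PPARD library 1 or 5 (0.0567 and 0.0544) and with a replicate block (0.0714). Cyp2c65 and Cyp2c66 share 11.4% and 10.8% of their 75-base windows with each other, and Cyp2c68 shares 28.5% with other genes, so their counts may be split between copies.

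Of the CYP2 genes that fell at all ages, Cyp2b10 (ENSMUSG00000030483, chromosome 7, 25897620 to 25926624), the textbook target of the xenobiotic receptor CAR, had 27.3, 10.2, 9.54, 22.2 and 25.6 CPM in WT and 4.92, 6.6, 7.17, 7.29 and 4.51 CPM in villin-PPARD libraries of 10 weeks. At 25 weeks it had 18.9, 20.5, 23.7 and 10.7 against 1.48, 2.17, 3.32 and 2.98 CPM, and at 55 weeks 9.41, 6.36, 15.2, 9.23 and 5.48 against 1.62, 1.36, 1.73, 0.894 and 0.706 CPM. Transgenic libraries lay below WT libraries at each age, and WT libraries 2 and 3 of 10 weeks were the lowest of their group. Log2 differences were -1.62 ± 0.31, -2.89 ± 0.38 and -2.85 ± 0.35 (adjusted p = 0.000238, 2.05e-06 and 1.29e-07).

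Cyp2u1 (chromosome 3, 131288441 to 131303227), a fatty acid hydroxylase, was also lower at each age. Its values were 8.44, 9.12, 10.3, 7.71 and 7.98 CPM in WT and 3.59, 4.44, 3.34, 3.03 and 4.29 CPM in villin-PPARD libraries at 10 weeks, 10.3, 6.88, 6.19 and 8.95 against 1.96, 3.42, 3.77 and 1.71 CPM at 25 weeks, and 2.7, 4.21, 6.77, 6.07 and 6.03 against 0.741, 0.318, 0.539, 0.335 and 0.392 CPM at 55 weeks. The groups never overlapped. Log2 differences were -1.23 ± 0.22, -1.55 ± 0.25 and -3.42 ± 0.27 (adjusted p = 8.28e-05, 2.49e-05 and 6.54e-12). An antisense gene, 4930534D22Rik, covers 10.5% of the Cyp2u1 exons, and the kit does not mark strand.

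Cyp2a5, a coumarin hydroxylase, was near the floor in most libraries. It had 0 counts in all 5 WT libraries of 55 weeks and 0.883, 3.64, 4.08, 0.894 and 1.54 CPM in the villin-PPARD ones. Per library total, without trimmed-mean factors, Cyp2a5 was at least 74.2-fold higher against a floor of 3 counts over the WT group. The trimmed-mean factors, 1.19 to 1.39 in these villin-PPARD and 0.905 to 1.03 in these WT libraries, would lower this bound. It is a description with no test. At 25 weeks 1 count in WT faced 9 in villin-PPARD, 8 of them in library 4. Cyp2a5 shares 22.3% of its 75-base windows with other genes, 15.7% with Cyp2a4. Cyp1b1 had 4.63, 2.23, 2.97, 2.61 and 1.68 CPM in WT and 4.03, 3.72, 5.92, 3.95 and 3.58 CPM in villin-PPARD libraries of 10 weeks, 1.65, 2.81, 3.39 and 2.26 against 3.15, 2.4, 1.08 and 2.61 CPM at 25 weeks, and 6.11, 2.88, 3.47, 2.31 and 2.03 against 4.7, 5.68, 5.62, 4.51 and 3.45 CPM at 55 weeks. For Cyp1b1 the groups overlapped at 10, 25 and 55 weeks. It was not called at 10, 25 or 55 weeks, with 3.36 ± 1.63 CPM in WT and 4.79 ± 0.919 CPM in villin-PPARD at 55 weeks (adjusted p = 0.122), and Cyp1a1, with 12 counts in all, was under the minimum.

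**Figure D3:**
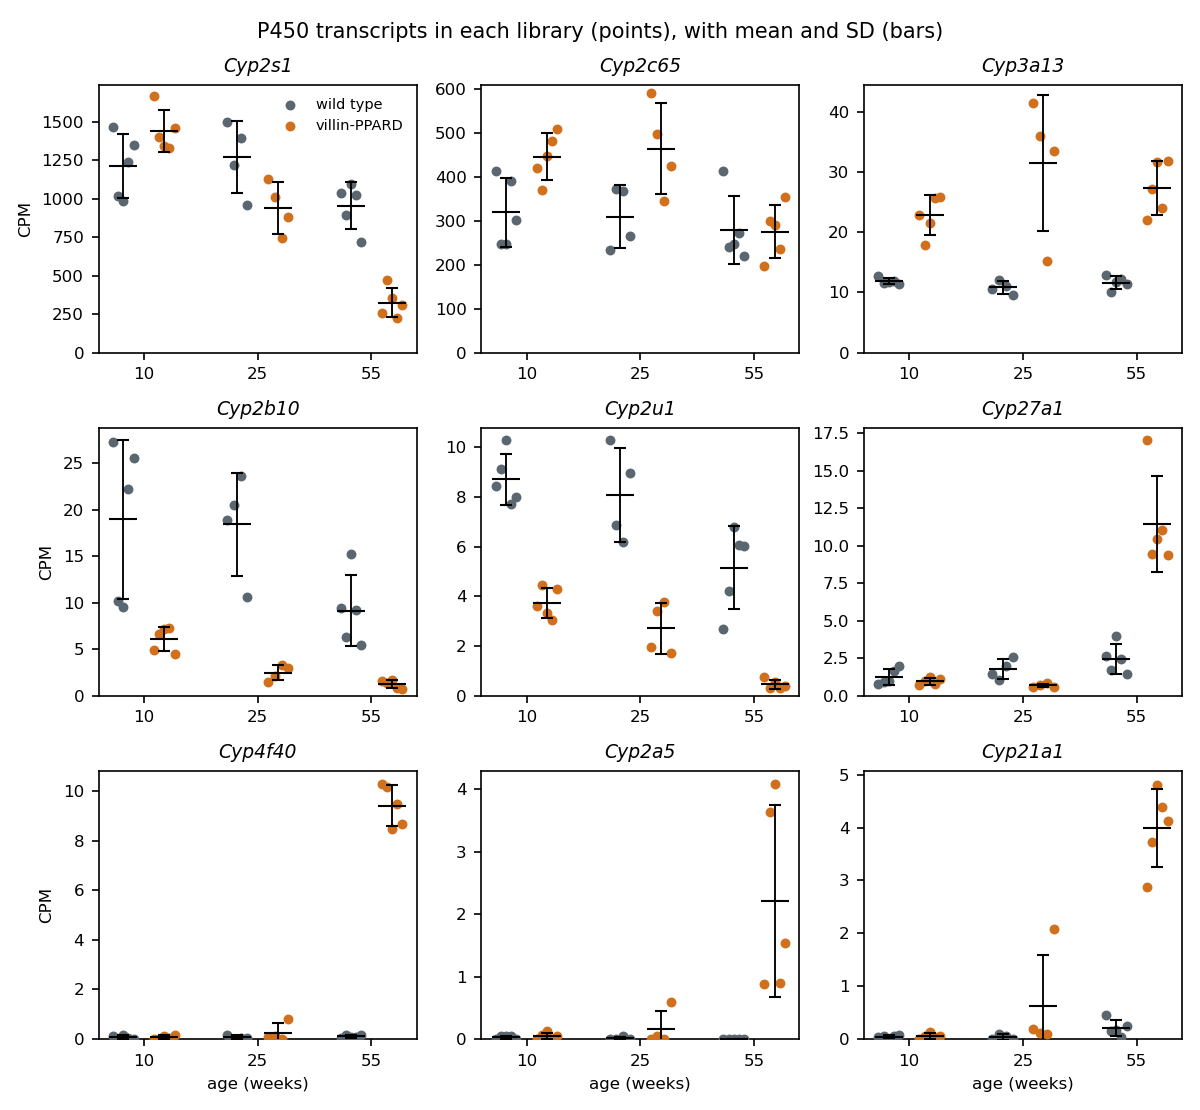
CPM of 9 P450 genes in each library (points; grey, wild type; orange, villin-PPARD) at 10, 25 and 55 weeks, with mean and SD as bars and axes starting at 0. At 55 weeks Cyp2s1, Cyp2b10 and Cyp2u1 lie lower in all transgenic libraries, and Cyp27a1, Cyp4f40, Cyp2a5 and Cyp21a1 lie higher in all of them; at 25 weeks 1 transgenic library stands apart for Cyp21a1, at 2.09 CPM.

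The 6 CYP2D members, the mouse relatives of the human drug-metabolising CYP2D6, lie within 424 kb of chromosome 15 (82370527 to 82794294) and did not move as a block. At 55 weeks 3 were higher (Cyp2d9, Cyp2d34 and Cyp2d26) and 3 lower (Cyp2d22, Cyp2d10 and Cyp2d12), beside 31.7% and 27.6% of all genes. Their order along the chromosome is Cyp2d22, Cyp2d10, Cyp2d9, Cyp2d12, Cyp2d34 and Cyp2d26, so that higher and lower genes alternate in part.

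Cyp2d9, known as a male-biased testosterone hydroxylase of the liver, rose at each age. WT libraries had 0.563, 0.424, 0.339, 0.782 and 0.756 CPM at 10 weeks against 6.74, 3.24, 3.25, 3.64 and 3.96 CPM in villin-PPARD, 0.183, 0.208, 0.982 and 0.377 against 2.77, 3.08, 1.03 and 3.28 CPM at 25 weeks, and 0.701, 0.739, 0.535, 0.77 and 0.492 against 5.27, 6.73, 11.4, 4.47 and 8.41 CPM at 55 weeks. The groups were apart at each age, by the least at 25 weeks, where WT library 3 and transgenic library 3 almost met. Log2 differences were 2.88 ± 0.36, 2.37 ± 0.43 and 3.45 ± 0.35 (adjusted p = 3.65e-07, 0.000101 and 1.1e-09). Of its 75-base windows, 12.9% are shared with other genes.

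Cyp2d34 changed direction with age. It had 4.46, 4.77, 5.51, 4.79 and 5.54 CPM in WT and 2.4, 2.82, 2.9, 2.41 and 2.2 CPM in villin-PPARD libraries at 10 weeks, 4.71, 5.0, 8.89 and 5.17 against 1.67, 2.79, 1.44 and 5.44 CPM at 25 weeks, and 11.1, 10.1, 10.4, 9.42 and 9.97 against 29.7, 23.3, 29.1, 26 and 28.5 CPM at 55 weeks. All transgenic libraries were lower at 10 weeks and all were higher at 55 weeks; at 25 weeks library 4 lay among the WT values. Log2 differences were -0.97 ± 0.22, -1.15 ± 0.25 and 1.43 ± 0.19 (adjusted p = 0.00124, 0.000597 and 2.08e-07), and the change from 10 to 55 weeks was itself called (2.40 ± 0.29, adjusted p = 1.6e-07).

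Cyp2d26 was called at 55 weeks alone, when its WT libraries had 3.85, 3.25, 4.1, 5.48 and 5.66 CPM and its villin-PPARD libraries 14.3, 15.9, 18.3, 14.3 and 19 CPM (log2 difference 1.86 ± 0.15, adjusted p = 8.53e-12). The groups did not overlap there. Cyp2d26 had 4.76, 6.68, 6.19, 5.84 and 6.64 CPM in WT and 6.93, 5.46, 6.77, 6.59 and 5.12 CPM in villin-PPARD libraries of 10 weeks, and 6.48, 3.85, 6.14 and 6.36 against 5.73, 5.82, 5.48 and 6.78 CPM at 25 weeks. For Cyp2d26 the groups overlapped at 10 and 25 weeks. At these ages the log2 differences were 0.04 ± 0.15 and 0.03 ± 0.17 (adjusted p = 0.848 and 0.896).

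Cyp2d22 fell from 6.39 ± 1.14 to 4.44 ± 0.484 CPM at 10 weeks, from 7.02 ± 1.63 to 3.24 ± 0.77 CPM at 25 weeks and from 6.66 ± 1.65 to 1.88 ± 0.354 CPM at 55 weeks (log2 differences -0.52 ± 0.18, -1.12 ± 0.20 and -1.81 ± 0.18; adjusted p = 0.0228, 8.29e-05 and 1.05e-09). Cyp2d22 had 6.02, 5.78, 5.05, 7.82 and 7.31 CPM in WT and 4.16, 4.56, 5.21, 4.3 and 3.96 CPM in villin-PPARD libraries of 10 weeks, 5.5, 6.77, 9.33 and 6.47 against 3.2, 4.28, 2.42 and 3.05 CPM at 25 weeks, and 5.76, 5.91, 9.27, 7.24 and 5.11 against 2.11, 1.59, 2.39, 1.71 and 1.59 CPM at 55 weeks. For Cyp2d22 the groups overlapped at 10 weeks and all transgenic libraries were below WT at 25 and 55 weeks. The 10-week call was lost without WT library 4 or 5 or villin-PPARD library 1 or 5 (adjusted p of 0.0506 to 0.0734). Within the first library group of 10 weeks, named in the column headings and holding 3 libraries per genotype, its log2 difference was -0.28 (adjusted p = 0.236).

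Cyp2d12 fell at 25 and 55 weeks, by log2 differences of -1.09 ± 0.33 and -2.33 ± 0.30 (adjusted p = 0.00923 and 1.32e-07). Its WT libraries of 25 weeks had 1.16, 1.25, 3.53 and 1.67 CPM, and without library 3, the highest, the log2 difference was -0.58 and the call was lost (adjusted p = 0.156). A library group term also ended the call (0.159), but it sets that library apart as a level of its own and is no separate check. At the other ages the level was 2.29, 1.75, 1.27, 2.03 and 1.93 CPM in WT and 2.14, 1.92, 2.05, 1.84 and 2.04 CPM in villin-PPARD libraries of 10 weeks, and 2.2, 1.48, 3.03, 2.4 and 1.29 against 0.427, 0.364, 0.385, 0.559 and 0.314 CPM at 55 weeks. For Cyp2d12 the groups overlapped at 10 weeks and all transgenic libraries were below WT at 55 weeks. WT library 3 of 25 weeks is tagged as a replacement in the column headings and was also the highest of its group for Cyp2d22, Cyp2d10, Cyp2d9 and Cyp2d34. Cyp2d10 passed at 55 weeks alone, with 15, 12.1, 23, 22.5 and 13.2 CPM in WT and 7.15, 13.9, 16.6, 8.72 and 10.4 CPM in villin-PPARD (-0.60 ± 0.25, adjusted p = 0.0426). Its libraries overlapped, and the call was lost without WT library 3 or 4 or villin-PPARD library 1, 4 or 5 (adjusted p of 0.0681 to 0.13) and with a replicate block (0.0513). Before that it had 32, 15.4, 16.5, 30.8 and 33.6 CPM in WT and 37.6, 40.1, 37.9, 28.4 and 31.8 CPM in villin-PPARD libraries of 10 weeks, and 22.8, 14.5, 33.6 and 20.4 against 19.4, 16.6, 14 and 16.8 CPM at 25 weeks. For Cyp2d10 the groups overlapped at 10 and 25 weeks. Cyp2d10 shares 22.3% of its 75-base windows with other genes, 14.6% with Cyp2d11.

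**Figure D4:**
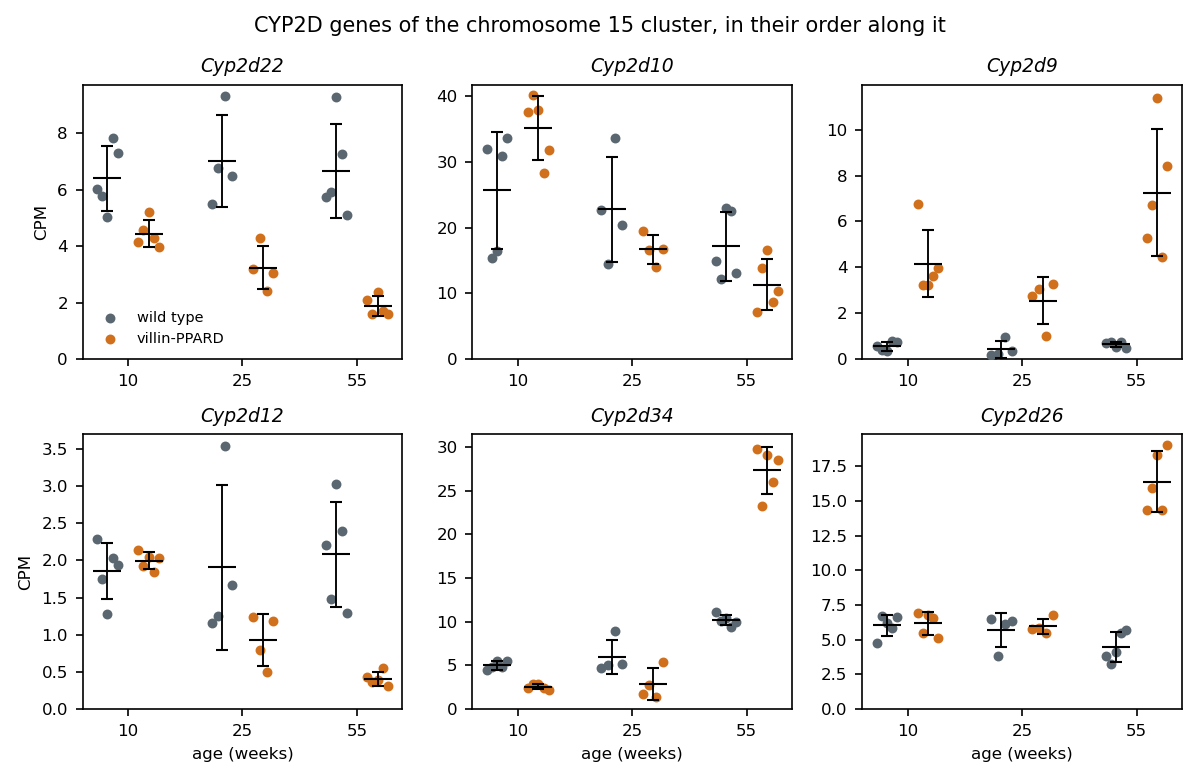
CPM of the 6 CYP2D genes in each library (points; grey, wild type; orange, villin-PPARD) at 10, 25 and 55 weeks, with mean and SD as bars and axes starting at 0, in their order along chromosome 15. At 55 weeks Cyp2d9, Cyp2d34 and Cyp2d26 are higher and Cyp2d22 and Cyp2d12 lower in all 5 transgenic libraries, while Cyp2d10 overlaps.

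The CYP4 genes are fatty acid hydroxylases. Of 8 tested CYP4F and CYP4V genes, 1 was higher and 3 lower at 10 weeks, 0 and 3 in mice of 25 weeks, and 1 and 5 in those of 55 weeks. Of 3 tested CYP4A, CYP4B and CYP4X genes, 2, 1 and 1 were lower at the 3 ages and 0 higher. Of all genes, 17.9%, 21% and 31.7% were higher and 16.2%, 18.6% and 27.6% lower at these ages.

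Cyp4f40 (ENSMUSG00000090700, chromosome 17, 32658900 to 32676914) was the exception in size. It had 0.13, 0, 0.17, 0.0521 and 0 CPM in WT and 0, 0, 0.134, 0.0439 and 0.165 CPM in villin-PPARD libraries of 10 weeks, and 0.183, 0, 0.0491 and 0.0539 against 0.0956, 0.114, 0 and 0.819 CPM at 25 weeks. For Cyp4f40 the groups overlapped at 10 and 25 weeks. Up to 25 weeks no library exceeded 0.819 CPM, and at 55 weeks the WT libraries had 0.050, 0.148, 0.0891, 0.0905 and 0.185 CPM and the villin-PPARD libraries 10.3, 10.1, 8.47, 9.46 and 8.65 CPM. The highest of the earlier values was villin-PPARD library 4 of 25 weeks. The fitted 55-week log2 difference was 6.35 ± 0.48, a description, since this group admitted the gene. It is 1 of 6 CYP4F members within 495 kb, of which Cyp4f39, Cyp4f17 and Cyp4f15 were lower at 55 weeks and Cyp4f16 and Cyp4f13 not called.

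Cyp4f18, which inactivates a leukotriene, had 1.95, 1.48, 1.27, 1.56 and 2.27 CPM in WT and 1.01, 1.08, 0.49, 1.01 and 0.77 CPM in villin-PPARD libraries at 10 weeks, 2.26, 1.35, 2.41 and 2.48 against 0.526, 1.14, 1.17 and 0.67 CPM at 25 weeks, and 2.8, 2.59, 2.49, 2.31 and 2.89 against 1.4, 0.728, 1.31, 1.9 and 1.36 CPM at 55 weeks. Transgenic libraries were lower at each age without overlap. Log2 differences for Cyp4f18 were -0.96 ± 0.26, -1.29 ± 0.29 and -0.96 ± 0.24 (adjusted p = 0.00519, 0.00087 and 0.000896). Zfp961 on the opposite strand covers 9.76% of its exons, and 7 of 8 tested leukocyte markers, a cell type in which Cyp4f18 is known, were higher at 55 weeks. The part of these cells in the result was not tested. Within the first library group of 10 weeks the log2 difference of Cyp4f18 was -0.91 (adjusted p = 0.0823).

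Cyp4v3 had differences of -0.83 ± 0.19, -0.64 ± 0.22 and -0.65 ± 0.19 on the log2 scale (adjusted p = 0.00137, 0.0197 and 0.00525), from 17 ± 2.77 to 9.55 ± 0.846 CPM at 10 weeks. Cyp4v3 had 13, 16.2, 16.6, 19.4 and 19.8 CPM in WT and 8.07, 10.01, 9.62, 9.97 and 10.1 CPM in villin-PPARD libraries of 10 weeks, 7.46, 14, 15.7 and 17.4 against 8.65, 9.87, 9.29 and 7.07 CPM at 25 weeks, and 7.46, 15.2, 10.4, 12.5 and 7.94 against 7.04, 4.78, 5.89, 7.93 and 8.28 CPM at 55 weeks. For Cyp4v3 all transgenic libraries were below WT at 10 weeks and the groups overlapped at 25 and 55 weeks. The 25-week call of Cyp4v3 was lost without WT library 3 or 4 or villin-PPARD library 4 (adjusted p of 0.0592 to 0.0992) and with a replicate block (0.0580). It was also lost with a library group term, which sets WT library 3 apart (0.0598). Cyp4f17 had differences of -0.33 ± 0.13, -0.59 ± 0.14 and -0.68 ± 0.12 (adjusted p = 0.0433, 0.00186 and 2.89e-05). Cyp4f17 had 5.5, 6.26, 6.07, 5.21 and 5.38 CPM in WT and 4.54, 4.92, 4.5, 4.65 and 4.07 CPM in villin-PPARD libraries of 10 weeks, 6.05, 6.98, 5.2 and 5.34 against 3.58, 4.79, 3.41 and 3.8 CPM at 25 weeks, and 5.4, 5.91, 6.59, 6.75 and 4.8 against 4.3, 3.18, 3.5, 3.8 and 3.55 CPM at 55 weeks. For Cyp4f17 all transgenic libraries were below WT at 10, 25 and 55 weeks. Its 10-week call was lost without WT library 1, 2 or 3 or villin-PPARD library 1 or 5 (adjusted p of 0.0527 to 0.105), with a replicate block (0.0783) and with WT libraries 2 and 3 summed (0.0929). Scaling by library size alone ended the 55-week calls of Cyp4v3, Cyp4f17 and Cyp4f18 (adjusted p = 0.294, 0.0901 and 0.0519).

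Cyp4f15 and Cyp4f39, the second an enzyme of the skin's ultra-long fatty acids, fell at 55 weeks from 21 ± 3.8 to 7.45 ± 3.38 CPM and from 4.95 ± 1.69 to 1.75 ± 0.514 CPM (log2 differences -1.51 ± 0.25 and -1.52 ± 0.22, adjusted p = 9.03e-06 and 7.19e-07). Cyp4f16 rose at 10 weeks alone, from 34.6 ± 2.45 to 49.2 ± 3.39 CPM (0.51 ± 0.10, adjusted p = 0.000346), with the groups apart. Its libraries had 34.8, 33.5, 31.7, 34.9 and 38.4 CPM in WT and 53.7, 48.9, 44.9, 47.3 and 51.1 CPM in villin-PPARD libraries of 10 weeks, 41.1, 28.1, 37.5 and 38 against 44.9, 43.9, 36.1 and 40.2 CPM at 25 weeks, and 40.7, 29.6, 41.4, 44 and 35.6 against 35.7, 43.7, 43.5, 37 and 36.9 CPM at 55 weeks. For Cyp4f16 all transgenic libraries were above WT at 10 weeks and the groups overlapped at 25 and 55 weeks. At 55 weeks its means were 38.3 and 39.3 CPM. Cyp4f16 shares 10.1% of its 75-base windows with other genes. Cyp4f13 was not called at any age and had 22.1 ± 2.95 and 22.2 ± 1.5 CPM at 55 weeks. It had 22.3, 22.2, 23.7, 24.6 and 24.9 CPM in WT and 22.5, 21.4, 21.5, 22.1 and 22.5 CPM in villin-PPARD libraries of 10 weeks, 26.3, 17.5, 21.1 and 21.5 against 19.2, 19.2, 17.7 and 19.5 CPM at 25 weeks, and 21, 19.3, 25.7, 24.8 and 19.9 against 20.4, 23, 24.3, 21.5 and 21.8 CPM at 55 weeks. For Cyp4f13 the groups overlapped at 10, 25 and 55 weeks.

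Cyp4a32, of the subfamily that responds to PPAR alpha in liver, had 1.38, 2.55, 1.57, 1.41 and 1.34 CPM in WT and 0.567, 0.48, 0.267, 0.527 and 0.275 CPM in villin-PPARD libraries of 10 weeks. All transgenic values lay below all WT values, as they did at 25 weeks (2.08, 1.04, 1.82 and 1.4 against 0.478, 0.456, 0.943 and 0.372 CPM). At 55 weeks the groups overlapped (0.30, 1.7, 1.51, 1.04 and 0.923 against 1.37, 0.364, 0.154, 1.04 and 0.549 CPM). Log2 differences were -1.96 ± 0.43, -1.47 ± 0.47 and -0.57 ± 0.41 (adjusted p = 0.000905, 0.0145 and 0.236). It shares 28% of its 75-base windows with other genes, mostly Cyp4a10, so the 2 genes may not be separated. Cyp4b1 was lower at 10 and 55 weeks (-1.07 ± 0.39 and -1.61 ± 0.42, adjusted p = 0.0322 and 0.00168). The first of these calls was lost without WT library 1, 3 or 4 or villin-PPARD library 1, 3 or 4 (adjusted p of 0.0512 to 0.0679) and with a replicate block (0.0625).

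Of 5 tested genes for sterols, bile acids and steroids, 0 were higher and 2 lower at 10 weeks, 1 and 2 in mice of 25 weeks, and 2 and 2 in those of 55 weeks. All genes gave 17.9%, 21% and 31.7% higher and 16.2%, 18.6% and 27.6% lower. The counts include Cyp21a1, admitted by the 55-week villin-PPARD libraries and called at 25 weeks only with library 4. Cyp27a1 (ENSMUSG00000026170, chromosome 1, 74713574 to 74737892), the mitochondrial sterol hydroxylase of bile acid synthesis, had 0.779, 0.901, 1.02, 1.67 and 2.02 CPM in WT and 0.693, 0.959, 1.25, 0.79 and 1.16 CPM in villin-PPARD libraries of 10 weeks, with overlap. At 25 weeks the values were 1.47, 1.04, 2.01 and 2.59 against 0.621, 0.742, 0.853 and 0.596 CPM, and at 55 weeks 2.65, 1.7, 4.01, 2.44 and 1.48 against 17, 9.41, 10.5, 11 and 9.38 CPM. Transgenic libraries were all lower at 25 weeks and all higher at 55 weeks, where library 1 was the highest. Log2 differences were -0.33 ± 0.30, -1.36 ± 0.35 and 2.24 ± 0.25 (adjusted p = 0.422, 0.00255 and 4.88e-09). Cyp27a1 is also known from macrophages, and the leukocyte markers averaged 74.7 CPM in WT and 299 CPM in villin-PPARD libraries of 55 weeks; their part in the result was not tested.

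Cyp21a1 (chromosome 17, 34801348 to 34804561), a steroid hydroxylase of the adrenal cortex, was scarce before 55 weeks. At 55 weeks WT libraries had 0.45, 0.148, 0.178, 0.0453 and 0.246 CPM and villin-PPARD libraries 2.88, 3.73, 4.81, 4.4 and 4.13 CPM, without overlap (fitted log2 difference 4.16 ± 0.55, given as a description). Before that it had 0.0433, 0.053, 0, 0.0521 and 0.084 CPM in WT and 0, 0.060, 0.134, 0.0439 and 0.055 CPM in villin-PPARD libraries of 10 weeks, and 0, 0.104, 0.0491 and 0 against 0.191, 0.114, 0.0898 and 2.09 CPM at 25 weeks. For Cyp21a1 the groups overlapped at 10 and 25 weeks. At 25 weeks the WT libraries held 2 counts together, and transgenic library 4 stood apart. The 25-week ratio of counts per library total was 17.5 (exact 95% counting interval 4.51 to 150.2), and the call (adjusted p = 0.00469) rested on library 4. Without it the ratio was 4.72 (0.941 to 45.6) and the adjusted p 0.108. The same library held the highest 25-week values of Cyp4f40, Cyp2a5 and Cyp2d34 in its genotype. Of its 75-base windows, 12.9% are shared with other genes, mainly the pseudogene Cyp21a2-ps.

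Cyp46a1 and Cyp39a1, hydroxylases of cholesterol and oxysterols, were lower. Cyp46a1 fell from 0.597 ± 0.0862 to 0.195 ± 0.141 CPM at 10 weeks, from 0.846 ± 0.222 to 0.251 ± 0.155 CPM at 25 weeks and from 0.516 ± 0.201 to 0.111 ± 0.0438 CPM at 55 weeks (adjusted p = 0.00632, 0.00518 and 0.000224), with no overlap at any age. Cyp39a1 fell at 10 and 55 weeks, by log2 differences of -0.45 ± 0.13 and -0.74 ± 0.14 (adjusted p = 0.00938 and 2.9e-05); in the second library group of 10 weeks, with 2 libraries per genotype, it was -0.14 (adjusted p = 0.533), and with library size alone the 55-week call was lost (0.0627). Cyp7b1, an oxysterol hydroxylase, was not called.

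Of the vitamin D enzymes, Cyp27b1 was lower at 55 weeks. Cyp27b1 (chromosome 10, 127048250 to 127053006), which makes the active vitamin D hormone, had 1.1, 1.85, 1.43, 1.4 and 2.15 CPM in WT and 0.513, 0.182, 0.115, 0.298 and 0.287 CPM in villin-PPARD libraries. The groups did not overlap, and the log2 difference was -2.42 ± 0.31 (adjusted p = 8.2e-08), after -0.04 ± 0.27 and -0.28 ± 0.31 at 10 and 25 weeks (adjusted p = 0.927 and 0.507). Cyp27b1 had 1.17, 1.8, 1.99, 1.35 and 1.26 CPM in WT and 1.13, 1.98, 1.29, 1.23 and 1.82 CPM in villin-PPARD libraries of 10 weeks, and 1.1, 1.46, 1.67 and 1.35 against 1.19, 0.627, 1.62 and 1.12 CPM at 25 weeks. For Cyp27b1 the groups overlapped at 10 and 25 weeks. Cyp2r1, which performs the preceding step, was not called, with 1.53 ± 0.321 and 1.48 ± 0.233 CPM at 55 weeks, and Cyp24a1, which degrades the hormone, had 1 count in all. The vitamin D receptor gene Vdr, from the receptor list, rose from 0.92 to 4.05 CPM (adjusted p = 9.51e-08).

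Cyp26b1 (chromosome 6, 84571414 to 84593908), which degrades retinoic acid, had at 55 weeks 0.15, 0.296, 0.445, 0.136 and 0.0615 CPM in WT and 1.17, 0.864, 0.462, 0.857 and 1.39 CPM in villin-PPARD libraries. The lowest transgenic library lay just above the highest WT library, and the fitted log2 difference was 2.24 ± 0.49, given as a description. At 10 and 25 weeks the differences were -1.18 ± 0.70 and -1.15 ± 0.65 (adjusted p = 0.199 and 0.162). Cyp26b1 had 0.26, 0.318, 0.127, 0.104 and 0.168 CPM in WT and 0.063, 0.12, 0.178, 0 and 0.055 CPM in villin-PPARD libraries of 10 weeks, and 0.734, 0.104, 0.147 and 0.431 against 0.335, 0.057, 0.0449 and 0.223 CPM at 25 weeks. For Cyp26b1 the groups overlapped at 10 and 25 weeks. Cyp26a1, its relative, had 19 counts in all. The orphan P450 Cyp20a1, of unknown substrate, rose modestly at 25 and 55 weeks, from 22 ± 1.34 to 28.2 ± 4.27 CPM and from 19.7 ± 1.68 to 29.8 ± 2.91 CPM (log2 differences 0.36 ± 0.10 and 0.59 ± 0.09, adjusted p = 0.00446 and 1.14e-06). Cyp20a1 had 21.4, 22.5, 21.6, 22.8 and 23 CPM in WT and 24.1, 26.2, 22.6, 24.5 and 25.7 CPM in villin-PPARD libraries of 10 weeks, 23.5, 21.3, 20.5 and 22.5 against 33.3, 30.1, 23.9 and 25.7 CPM at 25 weeks, and 20.8, 17.3, 19.3, 21.7 and 19.6 against 25.1, 30.4, 31.8, 29.2 and 32.5 CPM at 55 weeks. For Cyp20a1 the groups overlapped at 10 weeks and all transgenic libraries were above WT at 25 and 55 weeks. With the 25-week groups fitted alone the first call was lost (adjusted p = 0.0875).

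In WT mice P450 genes were called with age from 10 to 55 weeks, and none from 10 to 25 weeks. From 10 to 25 weeks 0 of 39 members were called (0.0126% of all genes), 0 had an unadjusted p under 0.05 (against 3.76% of all genes), and DESeq2 also called 0. From 10 to 55 weeks 8 were called (20.5%, against 12.7%). Of these, Cyp2c44, Cyp2d34, Cyp27a1 and Cyp4f15 rose (log2 differences 0.59 ± 0.12, 1.02 ± 0.20, 0.98 ± 0.28 and 0.93 ± 0.25) and Cyp2b10, Cyp2c55, Cyp2u1 and Cyp4v3 fell (-1.06 ± 0.30, -1.03 ± 0.30, -0.77 ± 0.22 and -0.67 ± 0.19), with adjusted p between 0.00152 and 0.0230. The count was 5 without WT library 1 of 10 weeks and 5 without WT library 1 of 55 weeks, and 4 with a term for the library group. Over all genes, 1017 higher and 990 lower became 642 and 657, 818 and 884, and 315 and 311 in these runs. All 55-week libraries belong to the second library group, so that age and library group cannot be fully told apart.

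In villin-PPARD mice 3 members were called from 10 to 25 weeks (7.69%, against 2.81%): Cyp21a1, Cyp2d10 and Cyp2d12 (log2 differences 2.996 ± 0.82, -1.07 ± 0.27 and -1.12 ± 0.31; adjusted p = 0.0445, 0.0318 and 0.0461). That count was 0 without library 1 or 2 of 10 weeks or library 1 or 4 of 25 weeks, 1 without library 4 or 5 of 10 weeks or library 2 of 25 weeks, and 6 without library 3 of 25 weeks. Over all genes, 315 higher and 130 lower became 52 to 71 and 12 to 18 in the runs that gave 0. They became 949 and 913 in the run that gave 6. From 10 to 55 weeks 31 were called (79.5%, against 51.7%), 15 higher and 16 lower. Among the members tested were Cyp21a1, Cyp26b1, Cyp2a5, Cyp4f40 and Cyp4x1, which passed the count filter only through the 55-week villin-PPARD libraries. A high level in that group let these 5 in, so any rise of theirs is a description with no test. The 79.5% and the 15 higher are thus in part set by the filter, and no excess over 51.7% is read from them. Both age comparisons of a genotype share its 10-week libraries.

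Whether the genotype difference itself changed with age was tested as an interaction. Between 10 and 25 weeks 0 of 39 members passed (against 0.00632% of all genes) and 9 had an unadjusted p under 0.05 (23.1%, against 11.4%). DESeq2 called 0 members, beside 36 of all genes moving up and 9 down. Without villin-PPARD library 3 of 25 weeks 1 member passed, beside 26 and 6 of all genes. Between 10 and 55 weeks 20 passed (51.3%, against 36.4%), with 9 differences moving up and 11 down. The upward ones include Cyp26b1, Cyp2a5 and Cyp4f40, which the 55-week villin-PPARD libraries admitted. The lowest adjusted p values belonged to Cyp2d26 (1.82 ± 0.21, adjusted p = 5.79e-08), Cyp2d34, Cyp2s1 (-1.81 ± 0.23, 3.84e-07) and Cyp27a1 (2.57 ± 0.39, 4.99e-06). Members called at all 3 ages differed here: the change passed for Cyp2u1 (-2.19 ± 0.35, adjusted p = 1.04e-05), Cyp2d22 (-1.30 ± 0.25, 0.000151) and Cyp2b10 (-1.23 ± 0.47, 0.0404), but not for Cyp3a13 (0.28 ± 0.23, 0.367), Cyp2c44 (-0.11 ± 0.17, 0.665) or Cyp2d9 (0.57 ± 0.52, 0.428). The change for Cyp2b10 was lost without any 1 of 10 libraries: WT 2 or 3 or villin-PPARD 2, 3 or 4 of 10 weeks, and WT 1, 3 or 4 or villin-PPARD 4 or 5 of 55 weeks (adjusted p of 0.0551 to 0.0924), and with WT libraries 2 and 3 of 10 weeks summed (0.0673).

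Summed over the 46 genes, P450 transcripts came to 1939 ± 321 CPM in wild-type and 2333 ± 148 CPM in villin-PPARD mice of 10 weeks (exact permutation p = 0.0317, 0.114 after adjustment over 18 tests; SD over 5 libraries). At 25 weeks the sums were 1985 ± 266 CPM in wild-type and 1851 ± 352 CPM in villin-PPARD mice (exact permutation p = 0.629, 0.707 after adjustment over 18 tests; SD over 4 libraries), and at 55 weeks 1638 ± 249 CPM in wild-type and 1018 ± 176 CPM in villin-PPARD mice (exact permutation p = 0.00794, 0.0714 after adjustment over 18 tests; SD over 5 libraries). At 55 weeks all transgenic libraries lay below all WT libraries, and 0.00794 is the smallest p that 5 against 5 can give (0.0286 for 4 against 4). Without Cyp2s1 the 55-week sums were 684 ± 122 CPM in wild-type and 695 ± 100.4 CPM in villin-PPARD mice (exact permutation p = 0.881). CYP2D genes summed to 41.2 ± 7.47 CPM in wild-type and 64.6 ± 8.87 CPM in villin-PPARD mice at 55 weeks (exact permutation p = 0.00794, 0.0714 after adjustment over 18 tests), and all 5 transgenic libraries were higher. No sum passed the adjustment over the 18 tests.

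Scaling bore on these sums. With library size alone the 55-week sum without Cyp2s1 was 658 CPM in WT and 877 CPM in villin-PPARD libraries, a ratio of 1.33 against 1.02 with trimmed-mean factors (exact permutation p = 0.0317, not adjusted). With library size alone the ratio of villin-PPARD to WT at 55 weeks was 0.816 for all 46 genes, against 0.621 with trimmed-mean factors, and 2.07 against 1.57 for the CYP2D genes. For the CYP4F and CYP4V genes the direction flipped at 55 weeks, from 0.87 to 1.15. CYP2C genes summed to 334 ± 79.4 CPM in wild-type and 465 ± 55 CPM in villin-PPARD mice at 10 weeks (exact permutation p = 0.0317, 0.114 after adjustment over 18 tests), mostly Cyp2c65.

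**Figure D5:**
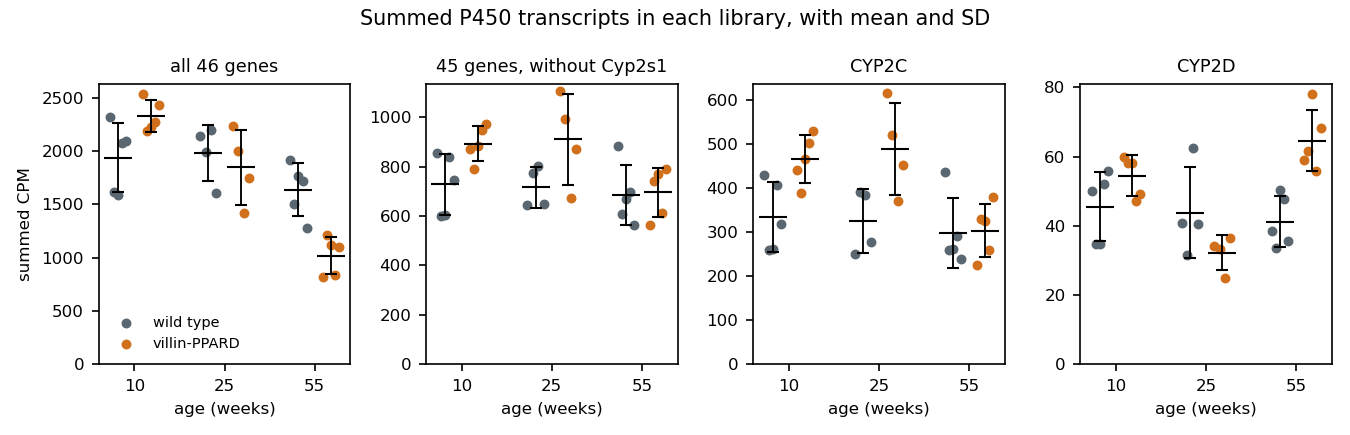
Summed CPM of all 46 P450 genes, of the 45 without Cyp2s1, of the 6 CYP2C and of the 6 CYP2D genes in each library (points; grey, wild type; orange, villin-PPARD) at 10, 25 and 55 weeks, with mean and SD as bars and axes starting at 0. At 55 weeks the total is lower and the CYP2D sum higher in all 5 transgenic libraries, and the sum without Cyp2s1 overlaps.

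Genes that act with P450 enzymes were taken from 4 lists. Their counts stand beside 17.9%, 21% and 31.7% of all genes higher at 10, 25 and 55 weeks, and 16.2%, 18.6% and 27.6% lower. Of 18 electron donor and haem genes, 4 were higher and 4 lower at 10 weeks, 3 and 7 in mice of 25 weeks, and 2 and 8 in those of 55 weeks. At 55 weeks Cyb5r3, the cytochrome b5 reductase, fell from 223 to 139.8 CPM (adjusted p = 1.01e-07) and Hmox1, the inducible haem oxygenase, rose from 6.95 to 15.4 CPM (adjusted p = 2.14e-07). Hmox1 had also risen at 10 weeks, from 5.62 to 10.4 CPM (adjusted p = 5.64e-05). Among 19 tested receptors and regulators of P450 genes, 9 were higher and 1 lower at 10 weeks, 7 and 3 in mice of 25 weeks, and 6 and 4 in those of 55 weeks. Ppard itself went from 74.1 to 109.5 CPM (adjusted p = 2.55e-05) at 10 weeks and from 79.4 to 93.3 CPM (adjusted p = 0.0307) at 55 weeks, which does not separate transgene from native reads. At 55 weeks Ppard is given outside the naming rule of lowest adjusted p, and its 25-week values are not given. Hnf4a rose at 10 weeks from 141 to 222 CPM (adjusted p = 5.66e-05), and Ppara fell at 55 weeks from 3.19 to 0.424 CPM (adjusted p = 2.98e-12), as did Nr0b2, from 7.09 to 0.784 CPM (adjusted p = 3.46e-12).

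Of 54 tested conjugating and other drug-metabolising enzymes, 7 were higher and 8 lower at 10 weeks, 10 and 14 in mice of 25 weeks, and 17 and 22 in those of 55 weeks. The all-gene shares at these ages were 17.9%, 21% and 31.7% higher and 16.2%, 18.6% and 27.6% lower. The glutathione transferase Gsta3 rose at 55 weeks from 52.7 to 248 CPM (adjusted p = 5.67e-15) and the carboxylesterase Ces1g from 2.61 to 43.4 CPM (adjusted p = 4.3e-13), while Mgst2 fell from 528 to 198 CPM (adjusted p = 1.66e-10). Of 15 tested genes of retinoid supply, 4 were higher and 2 lower at 10 weeks, 2 and 4 in mice of 25 weeks, and 5 and 8 in those of 55 weeks. The retinol dehydrogenase Rdh10 rose at 55 weeks from 45.5 to 278 CPM (adjusted p = 9.29e-13), and Rdh7 fell from 23.7 to 2.04 CPM (adjusted p = 4.32e-14).

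Not tested for low counts were 7 members: Cyp11a1, Cyp17a1, Cyp2c70, Cyp2e1, Cyp2f2, Cyp2j8 and Cyp4a10. Their group means ranged up to 0.428 CPM at 55 weeks, that of Cyp11a1 in WT. Cyp2e1, the ethanol-oxidising enzyme of liver, had 0.10, 0.813, 0.0891, 0.181 and 0.123 CPM in WT and 0.057, 0.136, 0.115, 0.149 and 0.261 CPM in villin-PPARD libraries of 55 weeks, with overlap. Earlier it had 0.822, 0.318, 0.17, 0.156 and 0.168 CPM in WT and 0.315, 0.060, 0.178, 0 and 0.055 CPM in villin-PPARD libraries of 10 weeks, and 0.122, 0.313, 0 and 0.0539 against 0.0956, 0.114, 0.18 and 0.298 CPM at 25 weeks. For Cyp2e1 the groups overlapped at 10 and 25 weeks. In a fit without the filter, Cyp4a10 was lower at 10 weeks (log2 difference -1.97, adjusted p = 0.0427), and Cyp11a1 and Cyp2j8 were lower at 55 weeks (-1.28 and -1.97, adjusted p = 0.0402 and 0.0426). Cyp4a10 shares 18.4% of its 75-base windows with other genes, 14.3% with Cyp4a32, which was also lower at 10 weeks.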

How the data were processed

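RNA of hand-scraped corpus epithelium was sequenced in 28 libraries with a poly-A kit that does not mark strand. Per the submitters' processing notes, reads were aligned to mm10 with TopHat2 2.0.14 and counted with HTSeq 0.6.1, and DESeq2 is also named. The authors deposited raw counts per gene symbol in 1 pooled table. Which annotation and strand setting HTSeq used is not stated in the sources at hand. Column headings name 2 library groups. The 25-week libraries, apart from WT library 3, are in the first along with libraries 1 to 3 of 10 weeks; those of 55 weeks are in the second along with libraries 4 and 5 of 10 weeks. Nothing else is known of these groups.

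From the counts, edgeR 4.0.16 (R 4.3.3, limma 3.58.1) fitted 1 quasi-likelihood model with a mean per group, after filterByExpr and trimmed-mean (TMM) scaling, and p-values were adjusted by Benjamini-Hochberg over 15812 genes per comparison at a threshold of 0.05. The comparisons were genotype at each age, age in each genotype, and how the genotype difference changed from 10 weeks, and those of 1 genotype share its 10-week libraries. The fit was tested on simulated data. Sums over genes were compared by a two-sided exact permutation test over libraries, adjusted over 18 tests. In the text ± after CPM is the SD over libraries and ± after a log2 difference is its SE.

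The members and all lists were chosen with earlier results of these data known. Per-library values are given for the 6 called members of lowest adjusted p in each direction and comparison with a group mean of at least 1 CPM, the 6 most abundant in WT, the 4 strongest changes between ages, and Cyp1a1, Cyp1b1, Cyp2e1, Cyp24a1, Cyp27b1, Cyp26a1, Cyp26b1 and Cyp27a1; other members are given by means, and up to 3 genes of a partner list by lowest adjusted p. Gene positions are from GENCODE M21 (GRCm38) and promoters from RefSeq GRCm38.p6. Shared sequence was measured as 75-base windows of a gene's transcripts found in another gene. Depth was 10982888 to 30891108 counts, and counting intervals and floors cover counting error only. Those intervals and floors use library totals without trimmed-mean factors. Alternatives were DESeq2 1.42.0 and its size factors, library size alone, no filter, only the groups compared, a library group term, fits within a library group, a replicate block and leaving out each library.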

Additional observations from a re-analysis of the deposited data

Results flagged for a closer look

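In 13 of 162 gene and group combinations, 1 library stood apart from the others of its group by Dixon's criterion, which chance alone meets in about 1 in 20 groups. In villin-PPARD mice these were Cyp2d9 in library 1 of 10 weeks (6.74 CPM), Cyp4v3 in library 1 of 10 weeks (8.07 CPM), Cyp1b1 in library 3 of 10 weeks (5.92 CPM), Cyp27a1 in library 1 of 55 weeks (17.03 CPM), and Cyp4f40 and Cyp21a1 in library 4 of 25 weeks (0.819 and 2.09 CPM). In WT mice they were Cyp2c44 in library 4 of 25 weeks (8.68 CPM), Cyp2d34 in library 3 of 25 weeks (8.89 CPM), Cyp2d26 in library 2 of 25 weeks (3.85 CPM), Cyp2c65 in library 1 of 55 weeks (413 CPM), Cyp4a32 in library 2 of 10 weeks (2.55 CPM), and Cyp2e1 in library 1 of 10 weeks (0.822 CPM) and library 2 of 55 weeks (0.813 CPM).

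The genotype difference changed between 10 and 55 weeks, by edgeR's interaction test, for 20 members. On the log2 scale it moved up for Cyp20a1 (0.45), Cyp26b1 (3.42), Cyp27a1 (2.57), Cyp2a5 (7.81), Cyp2c66 (1.91), Cyp2d26 (1.82), Cyp2d34 (2.40), Cyp2j9 (1.01) and Cyp4f40 (6.51). It moved down for Cyp27b1 (-2.38), Cyp2b10 (-1.23), Cyp2c55 (-1.49), Cyp2d10 (-1.06), Cyp2d12 (-2.44), Cyp2d22 (-1.30), Cyp2s1 (-1.81), Cyp2u1 (-2.19), Cyp4f15 (-1.46), Cyp4f16 (-0.47) and Cyp4f39 (-1.38). Cyp26b1, Cyp2a5 and Cyp4f40 passed the count filter only through the 55-week villin-PPARD libraries, so their values are a description. The value for Cyp2a5 is a fitted one against a group with 0 counts and is no bound. Its call was lost without WT library 2, 3 or 4 of 10 weeks (adjusted p of 0.0594 to 0.0612). That of Cyp2j9 was lost without WT library 2 or 4 or villin-PPARD library 1 or 2 of 10 weeks, or WT library 1, 3 or 4 or villin-PPARD library 4 or 5 of 55 weeks (0.0507 to 0.101).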

How the results depend on the processing

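None of 84 calls of members, for genotype at the 3 ages and for its change between 10 and 55 weeks, changed direction under any alternative run. Among them are calls of Cyp21a1, Cyp26b1, Cyp2a5 and Cyp4f40 that are descriptions, since the 55-week villin-PPARD libraries admitted these genes. Leaving out 1 library kept 935 of 1004 values of the 84 calls past the threshold, and library size alone kept 72 of 84. The 3 members called from 10 to 25 weeks in villin-PPARD mice stood beside 315 higher and 130 lower of all genes. They became 5 with DESeq2 size factors (all genes 294 and 189), 7 with library size alone (862 and 52) and 7 with DESeq2's Wald test (622 and 510). With no filter 1 was called (155 and 91), and with a library group term 1 (153 and 55). The 17 members lower at 55 weeks became 11 with library size alone (all genes 4371 to 2310). The 8 called from 10 to 55 weeks in WT became 4 with a library group term (all genes 1017 higher and 990 lower to 315 and 311). The 12 lower at 25 weeks became 9 with that term (all genes 2944 to 2667), which sets WT library 3 apart. The 6 higher at 25 weeks became 3 with only the groups compared (all genes 3318 of 15812 to 2057 of 13917). The 11 lower at 10 weeks became 7 within the first library group and 8 within the second, both with fewer libraries. All genes lower went from 2557 of 15812 to 1715 of 14055 and 2234 of 14074. The cause of the changes listed here was not tested. With library size alone, a choice made after seeing the data for sums, the ratio of villin-PPARD to WT turned to 1.04 for all members at 25 weeks, 1.09 for CYP2J and 1.15 for CYP4F and CYP4V at 55 weeks.

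Leaving out 1 library gave 4 to 6 members higher and 8 to 11 lower at 10 weeks, 5 to 7 and 9 to 13 at 25 weeks, and 12 to 14 and 15 to 17 at 55 weeks. All genes gave 2280 to 2828 higher and 1952 to 2805 lower at 10 weeks, and 2684 to 3432 and 2144 to 3475 at 25 weeks. At 55 weeks they gave 4591 to 4982 and 4129 to 4354. Over age leaving out 1 library gave 0 to 0 and 5 to 9 members in WT and 0 to 6 and 27 to 29 in villin-PPARD, and for changes of the genotype difference 0 to 1 by 25 weeks and 17 to 22 by 55 weeks. By 55 weeks all genes gave 605 to 996 higher and 598 to 990 lower in WT. In villin-PPARD they gave 3983 to 4231 and 3555 to 3806, and for changes of the genotype difference 2630 to 2967 up and 2578 to 2858 down. Deviations from the group mean in same-numbered libraries of the genotypes had correlations from -0.42 to 0.23. Such values cannot show whether equal numbers mark libraries that belong together, and the labels do not say. A replicate block gave 4 higher and 9 lower, 5 and 11, and 13 and 15 at the 3 ages. Of all genes it gave 2467 and 2006, 2888 and 2447, and 4686 and 4114. WT libraries 2 and 3 of 10 weeks differed less than other pairs of a group (chi-square per degree of freedom of 3.95, against 13.8 to 150.5) but beyond sampling noise, and summing them, also chosen after seeing the data, kept 33 of 36 calls. Few counts limit Cyp2a5, Cyp21a1 and the 7 untested members.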
